A study of Homo sapiens with 9 samples.

Results

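The peaks described here lie just downstream of 5′ splice sites. A merged peak was taken where its centre fell in the first 100 nt of an intron of at least 200 nt, on the same strand, in an Ensembl canonical coding transcript (GENCODE release 44, GRCh38). Over 54 antibody-barcode eCLIP (ABC) libraries, 174658 of 2478204 merged peaks met this rule (7.05%). They lay at 61284 of 161256 eligible 5′ splice sites, in 11188 of 18368 genes, and PRPF8 libraries held 124344 of them (71.2%).

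In ABC, cells are crosslinked with ultraviolet light and several RNA-binding proteins (RBPs) are precipitated together, and a DNA barcode on the antibody is joined to the bound RNA, so that every read can be assigned to its RBP. The 10plex experiments profiled 10 RBPs in 1 tube, with 3 replicates in K562, a chronic myelogenous leukemia line, and 2 in HEK293T, an embryonic kidney line that the methods name HEK293XT. The singleplex experiments profiled RBFOX2 in HEK293T and SLBP in K562, with 2 replicates each. No group was treated, all cells carried their own RBPs without a tag or knockdown, and the labels do not say whether replicates came from separate cultures, so that p-values measure the spread between these libraries. The 10plex HEK293T samples have HEK293T as their source but K562 as their cell line label, and replicate 3 of K562 is labelled K563. The 12 K562 markers held from 5 to 410 merged peaks each per K562 pool and at most 1 per HEK293T pool, whereas PAX2, NEFM, NEFL and CDH2 held from 6 to 163 per HEK293T pool and at most 4 per K562 pool. The sources and titles were therefore used. The reads in merged peaks summed to between 13351 and 4415108 per library, and no peak had fewer than 3 reads, so that a site without a peak is not shown to be unbound.

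At the 5′ end of an intron, U1 snRNA pairs with the splice site and is later replaced by U6, while the U5 particle holds the exon end. PRPF8 is the large core protein of U5 and touches the 5′ splice site, the branch point and the 3′ splice site. SF3B4 is part of the U2 particle at the branch point near the 3′ end, and RBFOX2 binds the motif (U)GCAUG, often in the intron downstream of an alternative exon. The other RBPs of the pool are known mostly from mature mRNA: DDX3 and EIF3G in translation initiation, IGF2BP2 and LIN28B in mRNA stability and translation, PUM2 in repression through the 3′ UTR, FAM120A as a cytoplasmic RNA-binding protein, and ZC3H11A in mRNA export. SLBP binds the stem-loop of histone mRNAs.

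The introns named for PRPF8 show which sequences its strongest peaks covered. They are the first 8 of 203 introns with a peak called enriched in all 3 K562 replicates and at least 20 reads in each, and 7 of them are printed here from the GRCh38 reference. Each line holds the last 3 bases of the exon and the first 57 of the intron, 5′ to 3′, with the first 6 bases of the intron in capitals.
RPL37 (chr5:40834124-40834183, minus strand): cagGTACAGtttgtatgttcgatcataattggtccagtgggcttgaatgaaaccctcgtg
NAP1L4 (chr11:2969746-2969805, minus strand): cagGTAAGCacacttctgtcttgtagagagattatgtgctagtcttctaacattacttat
EIF2B1 (chr12:123626987-123627046, minus strand): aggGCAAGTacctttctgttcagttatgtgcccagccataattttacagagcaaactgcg
PABIR2 (chrX:134781764-134781823, minus strand): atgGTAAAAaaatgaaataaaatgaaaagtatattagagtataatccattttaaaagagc
EDEM2 (chr20:35147095-35147154, minus strand): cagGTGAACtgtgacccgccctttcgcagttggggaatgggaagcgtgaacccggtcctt
RBM28 (chr7:128338193-128338252, minus strand): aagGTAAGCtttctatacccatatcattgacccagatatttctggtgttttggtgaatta
PSPC1 (chr13:19730182-19730241, minus strand): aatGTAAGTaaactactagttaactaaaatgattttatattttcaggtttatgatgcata
EIF2B1 has a GC in place of the usual GT as the first bases of the intron. RPL37, PABIR2 and EDEM2 begin with GT but lack the G that most introns have as base 5. The introns named for RBFOX2 are shown with each GCATG in capitals, since it lies under or beside the peaks, and with a longer stretch of the intron.
MYO9B (chr19:17210378-17210497, plus strand): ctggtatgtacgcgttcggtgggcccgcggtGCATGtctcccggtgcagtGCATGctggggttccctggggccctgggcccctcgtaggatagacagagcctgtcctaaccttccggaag
TSC2 (chr16:2077724-2077843, plus strand): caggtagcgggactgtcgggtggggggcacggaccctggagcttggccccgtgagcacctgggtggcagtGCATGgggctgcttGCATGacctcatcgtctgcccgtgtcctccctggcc
In MYO9B the motif starts at bases 29 and 48 of the intron, and in TSC2 at bases 68 and 82. PRAME and SLC20A1 are shown because most RBPs of the pool had peaks at these sites, again with the first 6 intron bases in capitals.
PRAME (chr22:22557488-22557547, minus strand): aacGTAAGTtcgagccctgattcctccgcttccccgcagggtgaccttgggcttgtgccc
SLC20A1 (chr2:112652796-112652855, plus strand): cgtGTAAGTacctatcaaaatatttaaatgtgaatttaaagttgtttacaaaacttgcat

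PRPF8 placed far more of its peaks at 5′ splice sites than any other RBP of the pool. In K562, 40.8%, 42.6% and 47.5% of the PRPF8 peaks in replicates 1, 2 and 3 were at 5′ splice sites, which were 20798, 24203 and 30378 peaks. The mean was 43.6% ± 3.48 (SD, n = 3), whereas the 27 libraries of the other 9 RBPs ran from 0.806% to 7.95%, with a median of 3.8%. The groups did not overlap. PRPF8 was the highest in 3 of 3 replicates, by 40.1 percentage points over the mean of the others (two-sided exact permutation that exchanged RBP labels inside each replicate, p = 0.001, the smallest of 1000 choices; p = 0.00686 after Benjamini-Hochberg adjustment over 10 RBPs).

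In HEK293T the PRPF8 shares were 27.9% and 21.4% (25471 and 23494 peaks), and the other 18 libraries lay between 1.44% and 5.21%. The difference from the mean of the others was 22.3 percentage points in 2 replicates (exact permutation, p = 0.01, the smallest of 100 choices; adjusted p = 0.0617 over 10 RBPs), so that it did not pass the threshold of 0.05 after adjustment. As a PRPF8 peak usually began in the exon, its share was 8.9% in K562 and 4.46% in HEK293T, against 2.2% and 1.61% for the others, when a peak was placed by its 5′ end instead of its centre. Among peaks enriched over the complement control, the reads of the other barcodes of a pool, it was 66.0% in K562 and 51.3% in HEK293T, against 1.46% and 1.03% (exact permutation, p = 0.001 and p = 0.01). The control of the other RBPs holds PRPF8 reads, which lowers their calls where PRPF8 has peaks.

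**Figure D1:**
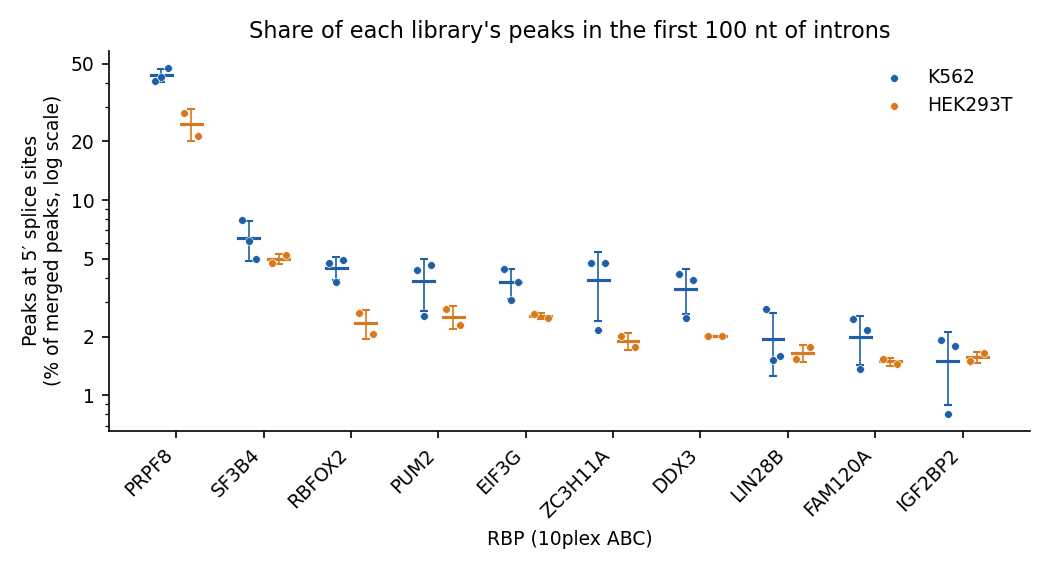
Share of merged peaks at 5′ splice sites (%, log scale) for each 10plex library, by RBP and cell line; points are libraries, and bars are mean ± SD (n = 3 in K562, n = 2 in HEK293T). PRPF8 sits between 40.8% and 47.5% in K562 and at 21.4% and 27.9% in HEK293T, above all other libraries, which reach at most 7.95%.

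Among the other 9 RBPs, SF3B4 had the highest share in all 5 pools. Its shares were 7.95%, 6.17% and 5.01% in K562 (6.37% ± 1.48, SD, n = 3), 3.25 percentage points above the mean of the other 8 RBPs (exact permutation without PRPF8, p = 0.00137, the smallest of 729 choices; adjusted p = 0.00686). In HEK293T they were 4.77% and 5.21% (exact permutation, p = 0.0123; adjusted p = 0.0617). This order depended on which peaks were counted: among peaks enriched over the complement control, the SF3B4 share in K562 was 1.24%, below the 1.48% of the other 8 RBPs (exact permutation, p = 0.752). In introns of at least 1000 nt it was 3.55% (exact permutation, p = 0.00274), and with peaks placed by their 5′ end 3.52% (exact permutation, p = 0.0357).

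RBFOX2 had 4.77%, 3.8% and 4.94% of its K562 peaks at 5′ splice sites, which did not differ from the other RBPs beyond their spread (exact permutation, p = 0.243, adjusted p = 0.405). Among peaks enriched over the complement control, however, its share was 3.16% against 1.24% (exact permutation, p = 0.00686), and with a window of 200 nt in introns of at least 400 nt, 2 choices changed together, it was 5.77% against 3.59% (exact permutation, p = 0.0288). IGF2BP2 had the lowest mean, with shares of 1.92%, 0.806% and 1.79% (exact permutation, p = 0.0165, adjusted p = 0.0549). None of DDX3, EIF3G, FAM120A, LIN28B, PUM2 and ZC3H11A passed the threshold, with adjusted p from 0.203 to 0.964 by the same exact permutation.

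The complement control (CC) of a library is the sum of the reads of the other 9 barcodes of its pool. A peak was called enriched over the CC with P below 0.001 and a fold above 8, among the peaks for which a CC value was deposited. The deposited value was a fold for K562 replicate 3 only, and for the other pools the fold was reconstructed from the deposited chi-squared values and the reads. For PRPF8 in K562, 6777 of 19676 peaks at 5′ splice sites were enriched in replicate 1 (34.4%), 10799 of 22986 in replicate 2 (47.0%) and 6537 of 30152 in replicate 3 (21.7%). Over all PRPF8 peaks of these libraries the percentages were 22.9, 30.7 and 15.4. The peaks at 5′ splice sites exceeded the PRPF8 peaks elsewhere by 20.1, 29.0 and 11.9 percentage points, and PRPF8 was highest in 3 of 3 replicates (mean 20.3 ± 8.53, SD, n = 3; exact permutation over RBPs, p = 0.001, the smallest of 1000 choices). With peaks placed by their 5′ end, which leaves out those that begin in the exon, the mean difference was 0.739 points, against -13.3 for the other RBPs (exact permutation, p = 0.009). It was 6 points with stricter calls (exact permutation, p = 0.001) and 10.8 points when calls were made over the external background (exact permutation, p = 0.003). Over that background nearly all PUM2 peaks passed in each K562 replicate, 100% at 5′ splice sites and 99.4% to 99.5% elsewhere. Their difference could thus hardly vary, and some libraries of other RBPs were alike.

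In HEK293T, 10223 of 24275 (42.1%) and 7677 of 22188 (34.6%) PRPF8 peaks at 5′ splice sites were enriched, beside 22.2% and 16.5% of all its peaks (exact permutation of the difference between peaks at 5′ splice sites and elsewhere, p = 0.01). All 45 libraries of the other 9 RBPs went the opposite way, with a lower enriched percentage at 5′ splice sites than elsewhere. SF3B4 in K562 had 67 of 1325, 143 of 2030 and 28 of 645 such peaks enriched (5.06%, 7.04% and 4.34%), where 25.3%, 30.0% and 39.8% of all its peaks were. RBFOX2 had 80 of 1579, 172 of 2010 and 110 of 1434 (5.07%, 8.56% and 7.67%), where 9.15%, 12.3% and 11.6% of all its peaks were. Over the other 7 RBPs in K562, 360 of 7616 were enriched (4.73%), against 20.4% of all their peaks. PRPF8 reads are part of the CC of these 9 RBPs, so that the CC is high wherever PRPF8 has reads.

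**Figure D2:**
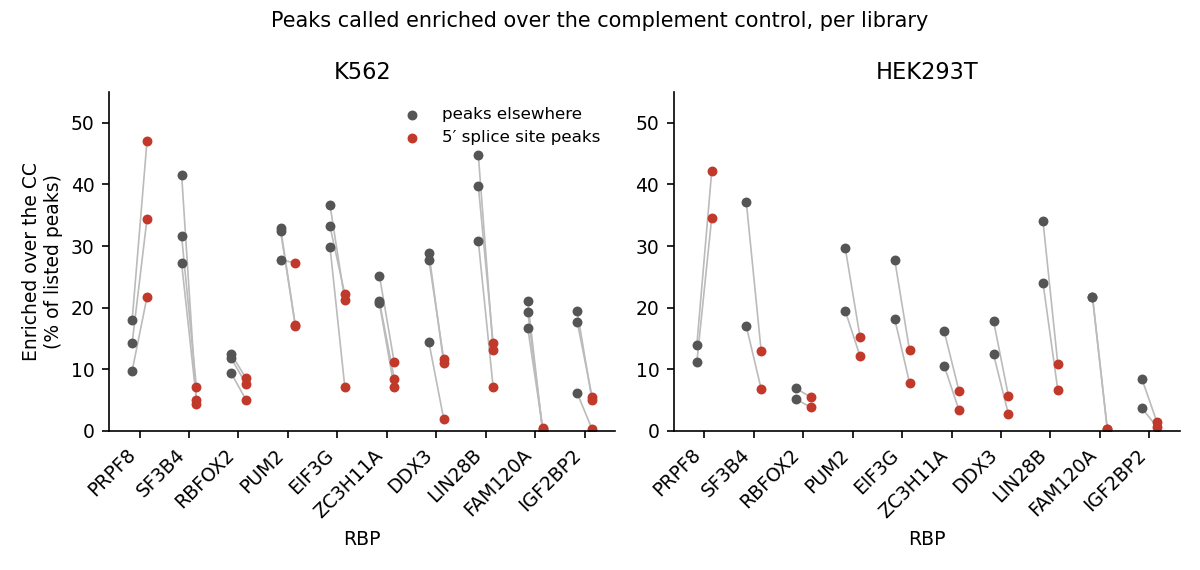
Percent of listed peaks called enriched over the CC, at 5′ splice sites (red) and elsewhere (grey), for each 10plex library of K562 (left) and HEK293T (right). PRPF8 goes from 14.3%, 18.0% and 9.76% elsewhere to 34.4%, 47.0% and 21.7% in K562, and all 45 other libraries are lower at 5′ splice sites.

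PRPF8 peaks sat directly on the exon-intron junction. The median distance of their centres from the 5′ splice site, counted with 1 as the first base of the intron, was 14, 15 and 11 nt in K562 and 11 and 10 nt in HEK293T. Of these peaks, 78.3%, 75.1% and 86.3% in K562 also covered the last bases of the exon, and the median peak ran from 10, 9 and 15 nt before the junction to base 38, 40 and 37 of the intron. Within the window, 74.7%, 70.1% and 86.2% of the centres lay in the first 20 nt and 2.51%, 2.96% and 1.61% in the last 50. The far edge of the window hardly mattered for PRPF8. In K562, 85, 103 and 104 peaks were centred in its last 10 nt and 61, 112 and 81 in the next 10 nt. At the near edge, 12.8%, 10.9% and 17.4% of K562 centres and 22.1% and 25.6% of HEK293T centres lay in bases 1 to 5. Peaks centred in the exon were not counted, so that the PRPF8 shares and medians of both lines depend on this edge.

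The other RBPs were spread more widely, but their medians overlapped those of PRPF8. In K562 the 27 library medians ran from 11 to 80 nt, with a mean of 25.3 against 13.3 ± 2.08 for PRPF8 (SD, n = 3; exact permutation, p = 0.168). Among peaks enriched over the CC the means were 44.2 and 13.3 nt (exact permutation, p = 0.024). The CC of the other RBPs holds PRPF8 reads, which lowers their calls near the junction, so that this test cannot show a difference in position. Among peaks enriched over the external background the means were 40.1 and 13.3 nt (exact permutation, p = 0.028). These calls kept 100% of the PUM2 peaks in each K562 replicate, but 18.1%, 21.2% and 13.2% of the IGF2BP2 peaks. The filter was thus unlike between libraries, so that this test cannot show a difference in position either. RBFOX2 medians were 28, 43 and 31 nt in K562, 52 and 50 nt in 10plex HEK293T and 62 and 63 nt in singleplex HEK293T. Only 8.55% and 9.0% of the singleplex RBFOX2 peaks were centred in the first 20 nt, compared with 22.1% and 24.5% of the 10plex peaks in the same line.

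**Figure D3:**
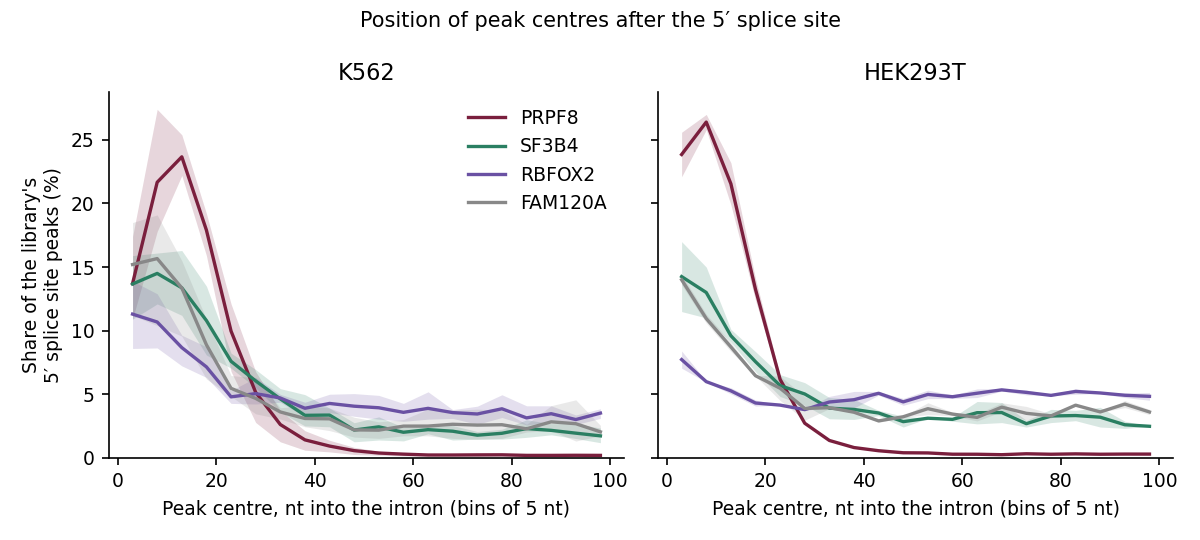
Distance of peak centres from the 5′ splice site, in bins of 5 nt, as a share of each library's 5′ splice site peaks (%), for PRPF8, SF3B4, RBFOX2 and FAM120A in K562 and HEK293T; lines are means over replicates and bands run from the lowest to the highest replicate. PRPF8 is concentrated in the first 20 nt, with 70.1% to 86.2% of its K562 peaks there, RBFOX2 in HEK293T is nearly even over the window, and SF3B4 and FAM120A are highest near the junction with a long tail.

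Over the eligible introns as a set, PRPF8 had more peaks at the 5′ end and SF3B4 more at the 3′ end. Peaks were summed over introns, and whether the same intron held both RBPs was not tested. In the last 100 nt of the eligible introns PRPF8 had 483, 691 and 864 peaks in K562, which gave a log2 ratio of 5′ over 3′ peaks of 5.43, 5.13 and 5.14 (5.23 ± 0.17, SD, n = 3; exact permutation, p = 0.002). Placed by the 5′ end of the peak it was 1.15, against -0.72 for the other RBPs (exact permutation, p = 0.045). SF3B4 had 4446, 11931 and 5597 peaks at the 3′ end against 1433, 2175 and 668 at the 5′ end, a mean log2 ratio of -2.38 ± 0.719 (SD, n = 3; exact permutation, p = 0.001). In HEK293T the mean log2 ratios were 4.98 for PRPF8 (exact permutation, p = 0.02) and -2.14 for SF3B4 (exact permutation, p = 0.01). The remaining 8 RBPs had more peaks at the 5′ than at the 3′ end in 40 of 40 libraries.

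**Figure D4:**
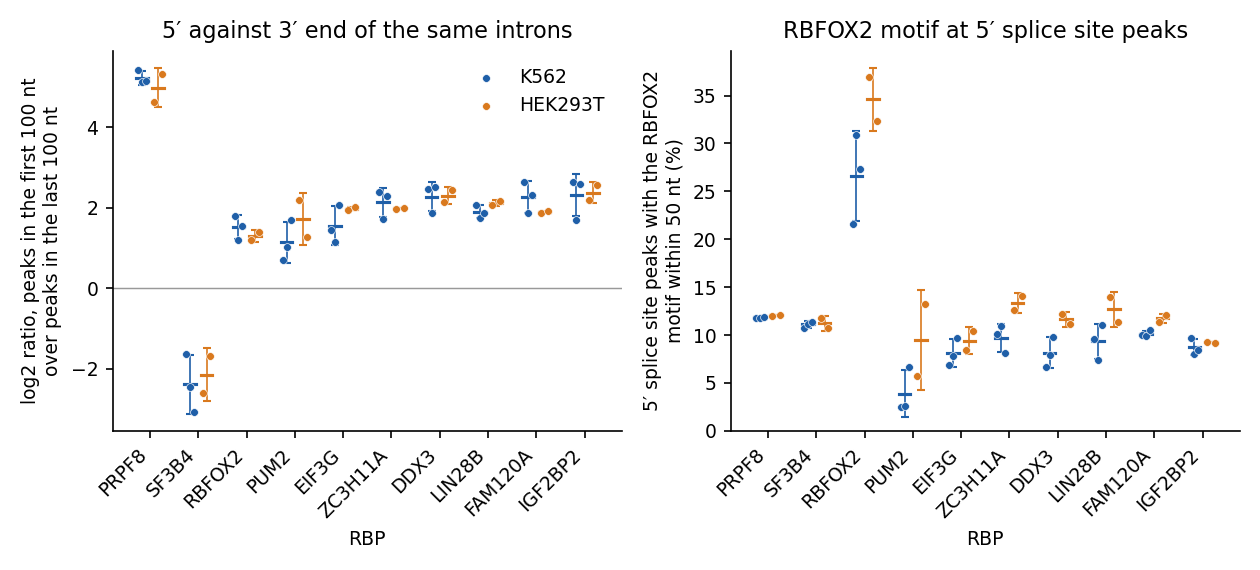
Left, log2 ratio of peaks in the first over the last 100 nt of the same introns; right, percent of 5′ splice site peaks with the RBFOX2 motif within 50 nt; points are libraries of K562 and HEK293T and bars are mean ± SD. PRPF8 is highest and SF3B4 alone is below 0 on the left, and RBFOX2 stands apart on the right, from 21.6% to 36.9%.

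In most libraries, the larger part of the other RBPs' peaks at 5′ splice sites lay on PRPF8 peaks of the same pool. In K562, 81.3% of them overlapped a PRPF8 peak in the median library (range 53.4% to 92.7%, 27 libraries), whereas for peaks elsewhere the median was 29.5% (10.9% to 68.1%). In HEK293T the medians were 81.1% and 43.5% (18 libraries). The overlapping peaks had low folds over the CC: for the 7 RBPs other than SF3B4 and RBFOX2 the median log2 fold in K562 was 0.25, 0.34 and -0.04, and 2.04%, 2.53% and 0.595% were enriched. Without an overlapping PRPF8 peak, the log2 folds were 1.80, 1.52 and 1.90, and 19.7%, 17.0% and 9.59% were enriched. For SF3B4 the enriched percentages were 0.785, 1.52 and 1.21 with and 19.3, 20.8 and 14.8 without an overlap. The CC of these RBPs includes PRPF8 reads, so that lower folds and fewer calls on PRPF8 peaks are built into this split. Whether reads of the other barcodes at these sites stem from PRPF8-bound RNA was not tested.

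RBFOX2 peaks at 5′ splice sites carried the RBFOX2 motif more often than those of other RBPs. GCATG, searched on the strand of the peak within 50 nt of it, was found for 21.6%, 30.9% and 27.3% of the RBFOX2 peaks in K562 (26.6% ± 4.68, SD, n = 3), where the 27 libraries of the other 9 RBPs ran from 2.44% to 11.9% (exact permutation, p = 0.001, the smallest of 1000 choices). HEK293T gave 36.9% and 32.3% (exact permutation, p = 0.01), and singleplex RBFOX2 44.3% and 44.6%. Among K562 peaks enriched over the CC the RBFOX2 value was 67.3%, against 10.1% (exact permutation, p = 0.001). RBFOX2 peaks at other places carried it in 26.3%, 33.1% and 29.8% in K562.

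Peaks with the motif lay deeper in the intron, with median distances of 43, 54 and 49.5 nt in K562 against 21, 30 and 22 nt without it. They were also enriched over the CC more often, in 14.8%, 18.8% and 18.5% of cases against 2.21%, 3.85% and 3.56%, so that 66.2%, 69.2% and 66.4% of the enriched RBFOX2 peaks at 5′ splice sites had a motif. RBFOX2 peaks on a PRPF8 peak carried the motif in 16%, 21.9% and 19.7% and those away from PRPF8 in 31.8%, 41.3% and 41.4%. On a PRPF8 peak 0.867%, 1.84% and 1.29% of them were enriched over the CC, and away from PRPF8 13.1%, 16.5% and 19.5%. The CC of RBFOX2 holds PRPF8 reads, so that motif and PRPF8 overlap cannot be told apart in these calls. As a background, 8.6% of all eligible first 100 nt windows hold GCATG, and 35.6% of the 261 windows with an RBFOX2 peak in all 3 K562 replicates do. A match is a description of the sequence and not a tested site.

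Singleplex RBFOX2 had 7254 and 4024 peaks at 5′ splice sites, or 2.14% and 2.09% of its merged peaks. Over the external background, by the same limits, 1132 (15.6%) and 822 (20.4%) of them were enriched, where 8.63% and 12.5% of all singleplex RBFOX2 peaks were. At the edge of the window the counts were even, with 877 and 503 peaks centred in its last 10 nt and 838 and 514 in the next 10 nt. Introns with a peak in both replicates numbered 2386 in singleplex and 1621 in 10plex HEK293T, of which 805 were shared (33.7% of the first and 49.7% of the second). The pairs differ in depth, and with 2 libraries against 2 no exact test can pass 0.05.

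By intron, PRPF8 peaks in all 3 K562 replicates were found at 6.16% of all eligible introns. Among eligible introns of genes with at least 1 such peak in K562, 11.1% had one in all 3 replicates and 47.7% in at least 1. Peaks were found at 42537 introns in at least 1 K562 replicate and at 9931 in all 3 (23.3% of the former). In HEK293T they were found at 35685 and in both replicates at 12689 (35.6% of the former). The 4470 introns found in all 5 libraries were 45% of those in all 3 K562 and 35.2% of those in both HEK293T replicates. The median PRPF8 peak at these sites had 6 reads in each K562 library, near the 3 reads that a peak needs. RBFOX2 peaks in all 3 K562 replicates were found at 261 introns, FAM120A at 121, SF3B4 at 115 and PUM2 at 17.

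Along the transcript, the share of introns with a PRPF8 peak was highest in first introns in both HEK293T replicates. In K562 this held in replicate 1 but not in replicates 2 and 3, and in replicate 1 it depended on the denominator. The denominator was the eligible introns of genes with at least 1 such peak in that cell line, 89183 introns of 8681 genes in K562 and 102832 of 9804 genes in HEK293T. This denominator depends on the peaks themselves, since a gene with few introns enters only if 1 of them has a peak. In K562, 26.4%, 24.6% and 34.2% of first introns had a peak in replicates 1 to 3, beside 23.8%, 26.4% and 36.9% of second introns. In HEK293T, first introns had 34.7% and 38.5% and second introns 26.1% and 24.5%. Introns beyond the tenth had 20.3%, 25.0% and 29.1% in K562 and 19.8% and 17.2% in HEK293T. Over all eligible introns, a denominator added after seeing the data, first introns had 12.5%, 11.7% and 16.2% in K562 and 18.6% and 20.7% in HEK293T, second introns 12%, 13.3% and 18.6% and 14.9% and 13.9%, and those beyond the tenth 11.6%, 14.3% and 16.7% and 13.6% and 11.9%. First introns were thus the highest class in HEK293T with either denominator. The difference between the cell lines was not tested.

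Counted over peaks, 10.7%, 8.5% and 9.4% of the PRPF8 peaks at 5′ splice sites in K562 were in first introns, beside 14.7% on average for the other RBPs (exact permutation, p = 0.055). In HEK293T they were 13% and 15.6%, beside 24.0% (exact permutation, p = 0.03). First introns made up 10.7% of all eligible introns, and the PRPF8 values lay at or below this in K562 and above it in HEK293T. The K562 difference passed the threshold without peaks on small RNA genes or adapter-like sites, with 9.52% against 17.3% (exact permutation, p = 0.004); such peaks made up from 46.3% to 71.8% of the PUM2 peaks at 5′ splice sites in K562 by their overlap with small RNA genes alone, and 0.174% to 0.212% of those of PRPF8.

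Introns of 20000 nt or more held PRPF8 peaks least often in both cell lines. In K562, introns of 200 to under 500 nt had one in 26.6% ± 5.11 of cases (SD, n = 3), with 22.6%, 24.8% and 32.4% in replicates 1 to 3. Those of 2000 to under 5000 nt had 24.6%, 29.1% and 36.1% and were the highest class in each replicate, and those of 20000 nt or more had 18.8%, 20.1% and 26.7% and were the lowest. By rank and length together, 33.9% ± 6.19 of first and 26.2% ± 4.98 of later introns below 1000 nt had a peak, whereas from 5000 nt the values were 25.2% ± 4.62 and 27.5% ± 5.59 (SD over the 3 K562 replicates). The median intron with a PRPF8 peak was 1890, 1941 and 1897 nt long in K562, and the medians of the other 27 libraries ran from 481 nt, in PUM2, to 1871.5 nt, in FAM120A (exact permutation of log10 medians, p = 0.061). The median of all eligible introns was 1946 nt, so that the PRPF8 medians were close to it and those of the other libraries lay below it. The medians of SF3B4 were 1357, 1225 and 1022 nt, and the mean medians of ZC3H11A (1150.5 nt), EIF3G (1157.3 nt) and PUM2 (581 nt) were shorter than its mean of 1201.3 nt.

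**Figure D5:**
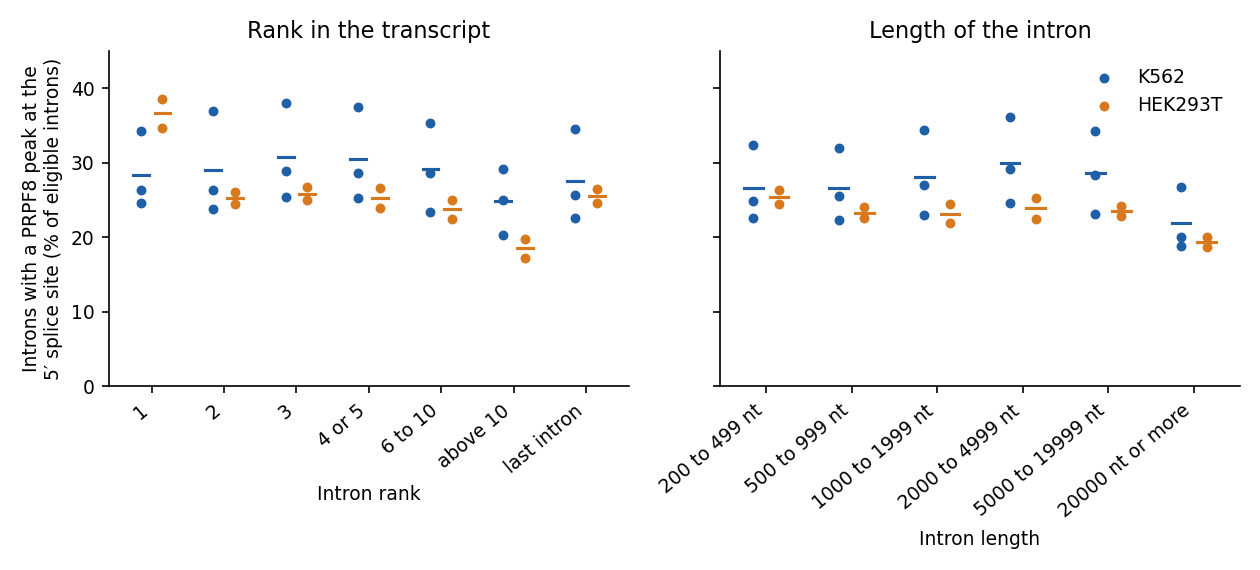
Percent of eligible introns with a PRPF8 peak at the 5′ splice site, by rank in the transcript (left) and by length (right), among introns of genes with at least 1 such peak in the cell line; points are replicates and short lines are means. First introns of HEK293T, at 34.7% and 38.5%, stand above the other HEK293T classes, and the longest introns are lowest by length in both lines.

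The sequence of the splice site was not used by the rule. Introns that begin with GTAAGT, the full match to U1 in these bases, had a PRPF8 peak in 34.3% ± 7.33 of cases in K562 (SD, n = 3; 27.1%, 34.1% and 41.7%), those with GTGAGT in 27.0% ± 5.42 (22.5%, 25.6% and 33.0%). GTAAGT was higher in 3 of 3 replicates, and also in HEK293T (27.3% and 25.0% against 23.3% and 22.9%). Introns with GC as first bases, 671 in K562, had 33.4%, 30.0% and 39.2%, whereas those with GT had 23%, 26.8% and 33.7%. In HEK293T the values were closer, 25.5% and 26.1% for GC and 24.5% and 22.6% for GT.

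Introns of the minor spliceosome, which is built on U11 and U12 and shares U5 with the major one, were rarely covered. Of 371 introns that begin with ATATCCTT or GTATCCTT, the conserved start of these introns, 3.77%, 3.77% and 6.47% had a PRPF8 peak in K562, and 38 had one in at least 1 replicate (10.2%, where 47.7% of all introns of these genes did). In HEK293T, 3.12% and 4.08% of 417 did. Introns that begin with AT had 7.41%, 4.44% and 6.67% in K562. Some introns belong to both groups. With 23% to 33.7% of GT introns covered in each library, the minor introns lay below the range of the replicates. These starts were found in 0.326% of all eligible introns.

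Among the 8 introns named for PRPF8, RPL37, which encodes a protein of the large ribosomal subunit, had the highest lowest fold. Its peak in intron 3 of 3 (chr5:40832574-40834180) had 30, 39 and 40 reads in K562, with log2 folds over the CC of 4.99, 5.03 and 5.07. It ran from 15, 10 and 19 nt before the junction to base 51, 50 and 49 of the intron. EIF2B1, a subunit of the exchange factor of eIF2, had 25, 38 and 42 reads in intron 5 of 8, the intron that starts with GC, with log2 folds of 5.47, 5.84 and 4.46. The rest were NAP1L4, a histone chaperone (intron 7 of 15), EPHX2, a soluble epoxide hydrolase (intron 6 of 18), PABIR2 (intron 9 of 9), EDEM2, which acts on misfolded glycoproteins of the endoplasmic reticulum (intron 1 of 10), RBM28, a nucleolar protein (intron 5 of 18), and PSPC1, a paraspeckle protein (intron 6 of 8). The folds of replicates 1 and 2 are reconstructed. Values are those of the strongest peak of the intron. Over these 8 introns the reads ran from 20 to 61 and the log2 folds from 4.25 to 5.88 in K562. A HEK293T peak was found at 7 of the 8 in at least 1 replicate and not at PABIR2.

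Few introns qualified for the other RBPs. RBFOX2 had 10, led by intron 37 of 39 of MYO9B, an unconventional myosin, whose peak had 94, 267 and 95 reads in K562 and log2 folds over the CC of 5.14, 5.43 and 5.10. It spanned bases 18 to 105 of the intron in replicate 2 and so covered both GCATG. In 10plex HEK293T its log2 folds over the external background were 6.66 and 6.13. TSC2, a tumour suppressor that restrains mTOR signalling, led the singleplex list in intron 26 of 41, with 717 and 346 reads and log2 folds over the external background of 8.68 and 8.48. Its 10plex HEK293T peaks had log2 folds of 9.18 and 8.77 over the external background, and K562 had a peak there in replicates 1 and 2 (23 and 32 reads).

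With at least 10 reads, SF3B4 had 2 introns and LIN28B 1. SF3B4 was named for intron 1 of 4 of TMED4, a cargo receptor of the secretory pathway, with 19, 20 and 11 reads and log2 folds of 3.77, 3.45 and 4.89. This intron is 223 nt long and the peak started at bases 39, 38 and 32. LIN28B was named for intron 1 of 5 of CHMP2A, an ESCRT-III subunit, with 21, 26 and 12 reads and log2 folds of 7.42, 4.73 and 3.49. DDX3, EIF3G, FAM120A, IGF2BP2, PUM2 and ZC3H11A had 0 introns that qualified.

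Some introns held peaks of nearly every RBP. In all 3 K562 replicates, 9822 introns had peaks of 1 RBP, 198 of 2 and 12 of all 10. All of the latter 12 held a peak on an annotated snoRNA, scaRNA, snRNA or miRNA gene or at an adapter-like site, and 23 introns were passed over for this before 3 were named. PRAME, a tumour antigen gene (intron 2 of 5), had 592, 467 and 715 reads in the strongest PRPF8 peak, above the 4 to 56 reads of the other 9 RBPs. In replicate 3, where a CC value was deposited, its log2 fold was 3.73 for PRPF8 and from -2.57 to -0.52 for other RBPs. SLC20A1, a phosphate transporter gene (intron 5 of 10), had 56, 103 and 144 PRPF8 reads with log2 folds of 2.22, 3.31 and 2.55.

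SNRPB, which encodes a core Sm protein of the spliceosome, differed in its intron 5 of 6. The strongest peak of each RBP in K562 was centred 78 to 91 nt into the intron, and for SF3B4 it had 68, 91 and 47 reads with log2 folds over the CC of 1.76, 2.03 and 1.89, while for PRPF8 it had 10, 15 and 25 reads with log2 folds of -2.29, -1.22 and -1.09. PRPF8 had a second peak in the same window in each replicate. None of the strongest peaks was called enriched over the CC in K562.

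Gene lists were described by the introns with a PRPF8 peak, without a test. Of 63 eligible introns of 13 SR protein genes, 24 had a peak in all 3 K562 replicates (38.1%) and 17 in both HEK293T replicates (27.0%), beside 6.16% and 7.87% of all eligible introns, which include genes without any peak. Among introns of genes with at least 1 PRPF8 peak in K562, 11.1% had a peak in all 3 replicates. SRSF6 had one at each of its 3 introns in both lines, and also peaks of FAM120A, IGF2BP2, RBFOX2 and SF3B4 in all 3 K562 replicates. The CLK genes, kinases of SR proteins, had 6 of 39 in K562 (15.4%) and 8 in HEK293T (20.5%), with CLK1 holding 3 in K562. Of 176 introns of hnRNP genes, 48 (27.3%) and 33 (18.8%) had peaks, and HNRNPA1 had 5 of 6 in K562 and 4 in HEK293T. Ribosomal protein genes had 126 (40.3%) and 145 (46.3%) of 313. Transcript level was not measured here, so that the percentages of these lists are not adjusted for it.

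The genes of the profiled RBPs had 23 of 126 introns with a PRPF8 peak in all 3 K562 replicates (18.3%) and 28 in both HEK293T replicates (22.2%). DDX3X had 5 of 11 in K562 and 4 in HEK293T, and IGF2BP2 5 of 15 and 3. Of the 12 introns of RBFOX2, 4 had one in at least 1 K562 replicate and 7 in at least 1 HEK293T replicate, and 0 and 4 in all replicates. The K562 marker genes had 9 of 25 in K562 and 0 in HEK293T, among them 2 of the 4 introns of GATA1, the erythroid transcription factor, and both introns of NFE2. Of the HEK293T markers, CDH2 had a peak in at least 1 HEK293T replicate at 4 of 15 introns and in both at 0, and PAX2, NEFM and NEFL had 0 in either.

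Between the cell lines, the PRPF8 share was 18.9 percentage points higher in K562 (43.6% ± 3.48, n = 3) than in HEK293T (24.7% ± 4.57, n = 2, SD), without overlap. Of 10 choices of 3 libraries the observed one was the most extreme (exact two-sided permutation, p = 0.1, the smallest the design allows; adjusted p = 0.4 over 10 RBPs). The shares of 5 RBPs did not overlap between the lines, all of them higher in K562: PRPF8, RBFOX2, ZC3H11A, DDX3 and EIF3G. For the other 5 the ranges overlapped, with IGF2BP2 at 1.51% and 1.56%. The PRPF8 libraries of HEK293T had more merged peaks (91279 and 109547) than those of K562 (50980 to 63944), and with the 20000 peaks of most reads in each library the shares were 48.6% and 28.0% (exact permutation, p = 0.1). With peaks placed by their 5′ end the difference was 4.44 points (exact permutation, p = 0.2).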

How the data were processed

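Per the labels and the study's methods, reads were trimmed with cutadapt (version 2.8), split by barcode, mapped with STAR (version 2.7.6) to GRCh38 and called into peaks with CLIPper. The deposited merged peaks hold a −log10 p-value, capped at 400, and a log2 fold over an external background that differed between RBPs. The deposited complement control (CC) values were a −log10 p-value and log2 fold for K562 replicate 3, and, for the other pools and without repeat peaks, a p-value beside the chi-squared score it came from. The deposited CLIPper tables give a p-value and the reads of each peak. Where a table lacked reads, they were recovered from the deposited log2 folds. CC folds, and the calls that use them, were reconstructed in the same way from chi-squared values in all pools but K562 replicate 3. In K562 replicate 1, 96.9% to 99.6% of the whole solutions per library equalled the reads in the peak names, and CC reads came out whole for 71.4% to 98.3% of peaks in K562 replicates 1 and 2 and 54.1% to 83.9% in HEK293T.

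Peaks were placed by their centre on GENCODE release 44 (the study used 35), with Python (3.11.15), pandas (2.3.3) and SciPy (1.17.1). A call needed P below 0.001 and a fold above 8. Libraries were compared by exact two-sided permutation of the RBP labels within pools, since the RBPs of a pool share cells and lysate, and cell lines by exact permutation of replicates. SF3B4 and the RBPs other than PRPF8 were tested without PRPF8 for the share of peaks. Adapter-like sites were peaks with a genomic match to the adapter nearby. The log2 ratio of peak counts used a pseudocount of 0.5. A chi-squared value fits both an enriched and a depleted peak, and the side was chosen from merged peaks of the other libraries of the pool. The reconstruction of CC folds and calls was tested on simulated chi-squared values made from K562 replicate 3, whose CC folds are deposited. That test did not cover the recovery of reads. Introns were named by a rule: for PRPF8 the first 8, and for other RBPs the first 1, ranked by the lowest log2 fold over the CC in K562 among introns enriched in all 3 replicates with at least 20 reads (10 where no intron had 20), and the 3 introns shared by the most RBPs. Members, gene lists and rules were chosen with earlier results of these data known. Alternatives for the window, intron length, transcripts, peak position, calls and replicates were tried. A marker gene of the HEK293T list is not reported here.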

Additional observations from a re-analysis of the deposited data

How the results depend on the processing

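The shares of PRPF8 and SF3B4 in K562 kept their direction and their side of the threshold under 14 and 13 alternatives. The exception was SF3B4 among peaks enriched over the CC, at 1.24% against 1.48% (exact permutation, p = 0.752). The RBFOX2 share passed the threshold with a window of 200 nt in introns of at least 400 nt (5.77%) and among peaks enriched over the CC (3.16%). With 1 HEK293T replicate left out the PRPF8 share ran from 21.4% to 27.9%, and no p below 0.1 was possible by exact permutation. The distance of PRPF8 peaks passed among peaks enriched over the CC or over the external background (13.3 nt in both, others 44.2 and 40.1). The CC of the others holds PRPF8 reads, and calls over the external background kept nearly all peaks of some libraries. The share of PRPF8 peaks in first introns passed for introns of at least 1000 nt (10.5%) and without small RNA and adapter-like peaks (9.52%), and log10 intron length among peaks enriched over the external background (3.27). Without the replicate block it passed too, at 9.53% (permutation, p = 0.0484), and no other call changed. Peaks need at least 3 reads and libraries differ in depth, so that shares of introns with a peak depend on depth. So does the denominator of genes with at least 1 such peak. The ranking of the top 20000 peaks was chosen after seeing the data. The causes of these changes were not tested.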

Other observations

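Singleplex SLBP, which binds histone mRNAs whose genes mostly lack introns, had 130 of 4445 merged peaks at 5′ splice sites in replicate 1 and 46 of 1743 in replicate 2 (2.92% and 2.64%), of which 21 and 8 lay on annotated small RNA genes. The median peak had 3 reads, the fewest that a peak can have.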
